A study of Mus musculus with 28 samples.

Results

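Rarres2, Tfpi2, Folh1, Sugct, Syne4, Fam151a, Fam25c and Pbld2 are 8 protein-coding genes that were chosen by their read counts: each had differed between NMN and water in the kidney in earlier tests of these same libraries, and some in the liver too. They are 8 of the 54446 genes in the count tables, and all 8 were found by symbol: ENSMUSG00000009281.6 (Rarres2, chromosome 6), ENSMUSG00000029664.10 (Tfpi2, 6), ENSMUSG00000001773.14 (Folh1, 7), ENSMUSG00000055137.7 (Sugct, 13), ENSMUSG00000019737.14 (Syne4, 7), ENSMUSG00000034871.2 (Fam151a, 4), ENSMUSG00000043681.5 (Fam25c, 14) and ENSMUSG00000020072.15 (Pbld2, 10). The rule used the NMN contrasts, so every value of NMN against water below is a description of the chosen genes and supports nothing beyond it. Nicotinamide mononucleotide (NMN), a precursor of NAD, was given to mice by gavage to look for toxic effects at high oral doses, and polyA RNA of liver and kidney was sequenced. All mice were male C57BL/6 mice (C57BL6J in the study's methods) of 8 weeks, with no altered allele named in the labels, and were gavaged for 7 days. In the 1340 mg/kg/d experiment NMN or water was given once a day, with 4 NMN and 4 water libraries from each organ. In the 2680 mg/kg/d experiment gavage was 2 times a day, with 3 NMN and 3 water libraries from each organ, 28 libraries in all. These are called the low and the high dose below. The water groups carried the schedule of their own experiment, so number of gavages, dose and anything else that set the experiments apart cannot be told apart. A library was taken as 1 mouse, although the labels do not tie libraries to animals, and p-values measure the spread between these libraries.

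The members act in different places. Rarres2 encodes chemerin, a secreted chemoattractant and adipokine that signals through the receptor Cmklr1. Tfpi2 encodes a secreted Kunitz-type inhibitor of serine proteases such as plasmin. Folh1 encodes glutamate carboxypeptidase II, a surface enzyme that removes glutamate from folylpolyglutamate and from N-acetylaspartylglutamate and is abundant on the brush border of the proximal tubule, where the kidney recovers most of the filtered solutes. Sugct encodes the mitochondrial succinyl-CoA:glutarate CoA-transferase, which activates glutarate from lysine breakdown and whose loss causes glutaric aciduria type III. Syne4 encodes nesprin-4, an outer nuclear membrane protein that ties kinesin-1 to the nucleus as part of the LINC complex. Fam151a, Fam25c and Pbld2 are less well characterised. Pbld2 and its neighbour Pbld1 encode phenazine biosynthesis-like proteins.

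Promoter sequences from RefSeq (GRCm38.p6) were available for 7 of the 8 members. Rarres2 was not among them. The 250 bases before each start site were searched on both strands for 4 short motifs, and the 4 promoters that held a match are printed, since they belong to members with opposite directions in the kidney. The lines run 5′ to 3′ on the strand of the gene and stop before the first base that the GENCODE M21 annotation counts as exon, with matches in capitals. The window of Tfpi2 is chr6:3988937-3989186, minus strand. The window of Fam25c is chr14:34355434-34355643, minus strand. The window of Folh1 is chr7:86775944-86776114, minus strand. The window of Sugct is chr13:17694770-17695015, minus strand.
Tfpi2: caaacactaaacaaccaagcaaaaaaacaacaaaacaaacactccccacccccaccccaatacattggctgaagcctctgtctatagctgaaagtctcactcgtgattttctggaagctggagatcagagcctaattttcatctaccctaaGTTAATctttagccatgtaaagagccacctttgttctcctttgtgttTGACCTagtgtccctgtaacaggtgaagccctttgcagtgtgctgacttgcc
Fam25c: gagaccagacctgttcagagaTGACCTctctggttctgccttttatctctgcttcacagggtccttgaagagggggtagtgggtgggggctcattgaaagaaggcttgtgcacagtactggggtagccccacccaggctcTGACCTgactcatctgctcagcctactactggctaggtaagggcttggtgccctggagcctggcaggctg
Folh1: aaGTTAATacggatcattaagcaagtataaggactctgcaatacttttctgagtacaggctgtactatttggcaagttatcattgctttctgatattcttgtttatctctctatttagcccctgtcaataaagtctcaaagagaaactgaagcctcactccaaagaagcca
Sugct: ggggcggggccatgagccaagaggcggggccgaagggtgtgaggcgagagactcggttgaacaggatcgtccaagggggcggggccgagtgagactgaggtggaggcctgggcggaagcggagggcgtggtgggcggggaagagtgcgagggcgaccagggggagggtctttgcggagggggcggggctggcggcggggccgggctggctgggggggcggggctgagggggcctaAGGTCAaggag

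In capitals stand GTTAAT, the half-site read by HNF1 factors, and AGGTCA or its reverse complement TGACCT, the half-site shared by many nuclear receptors. GTTAAT was found in 2 of the 7 promoters, those of Tfpi2 and Folh1, against 6.52% of 27025 promoters of the same length. AGGTCA was found in 3 of the 7, Tfpi2, Fam25c (2 matches) and Sugct, against 13.8% of all. CACGTG, the E-box, and TGACNNNGC, the core of the antioxidant response element, were found in none of the 7, against 6.05% and 10.1% of all promoters. AGGTCA stood before a gene that was higher in the kidney under NMN (Fam25c) and before 2 that were lower (Tfpi2, Sugct). A match shows that these letters are in the window and nothing about binding.

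Values are CPM (counted reads of a gene scaled to the library's reads on all genes) in single libraries, which held 12688324 to 33872983 counted reads. Fold changes are from the edgeR quasi-likelihood test, which scales libraries with TMM factors, and a gene is called where the p adjusted over all tested genes is under 0.05. In the kidney, 3 of the 8 members were called at 1340 mg/kg/d, against 0.12% of the 14972 genes tested. In the high-dose mice, 7 of the 8 were called, against 0.4% of 15245. The choice of members fixed these shares, and nothing is read from them. By direction, 1 member was higher and 2 lower at 1340 mg/kg/d (0.0668% and 0.0534% of all genes tested). Under the high dose, 1 member was higher and 6 lower, against 0.118% and 0.282% of all genes tested. With plain library sizes in place of TMM, 41.7% of the kidney calls at 1340 mg/kg/d were in the higher direction instead of 55.6%, and the 3 members called were the same. At the high dose Tfpi2 missed the threshold on that scale, with a log2 fold change of -0.71. Of all genes, 12 were called at the low dose and 62 at the high dose on that scale.

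The NMN and water libraries of the kidney did not overlap for 4 of the 8 members at 1340 mg/kg/d (5.08% of all tested genes) and for 8 of 8 at 2680 mg/kg/d (16.4% of all). The median log2 fold change of the members was -0.13 at 1340 mg/kg/d and -0.62 at 2680 mg/kg/d, where the medians of all tested genes were 0.00110 and 0.00380. In the low-dose mice, Tfpi2 lay just inside the threshold with an adjusted p of 0.0393 in edgeR's test, and Syne4 was the next member in order with 0.414. With the high dose, Tfpi2 was again the last inside with an adjusted p of 0.0470 in edgeR's test, and Rarres2 was outside with 0.351.

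**Figure D1:**
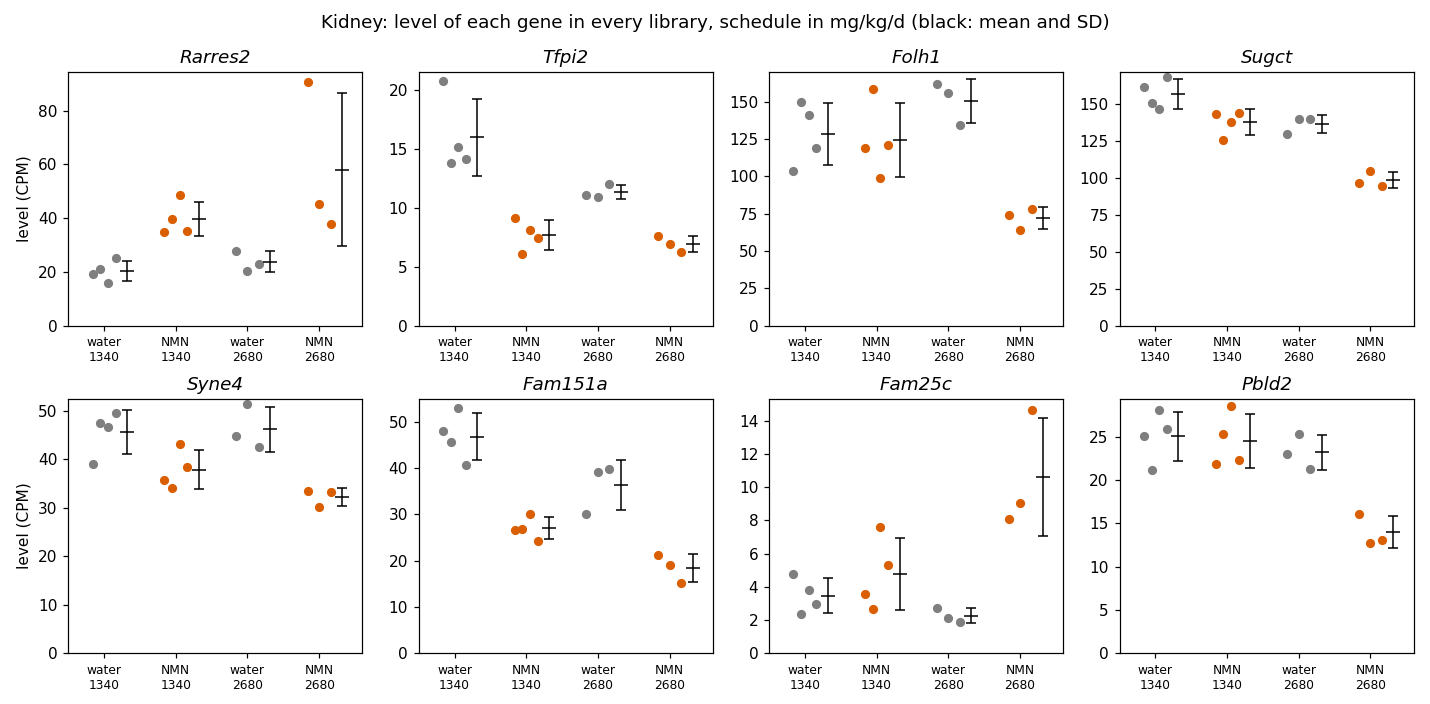
Level of each gene in the 14 kidney libraries, in CPM on linear axes that start at 0. Grey points are water and orange points NMN libraries of the 1340 and 2680 mg/kg/d schedules, and the black bar beside each group is its mean and SD. In the high-dose mice, all 3 NMN libraries stand apart from the 3 water libraries in every panel, above them for Rarres2 and Fam25c and below for the other 6.

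Rarres2, the chemerin gene, had every NMN library above every water library of its schedule in the kidney, and was called at the low dose. Under the low dose, the water libraries held 19.3, 21.1, 15.96 and 25.2 CPM and the NMN libraries 34.9, 39.8, 48.6 and 35.4 CPM. The highest water library lay below the lowest NMN library, and the log2 fold change was 0.94 (SE 0.14), a ratio of 1.92. This call was lost with all 14 kidney libraries in 1 fit. Under the high dose, the water libraries held 27.97, 20.3 and 23.0 CPM and the NMN libraries 90.7, 45.4 and 38.0 CPM. The groups did not overlap, the first NMN library was far above the others, and the log2 fold change of 1.26 (SE 0.38) was not called. Without that library the log2 fold change was 0.82 and was called. A replicate block with all libraries kept also called Rarres2 at the high dose. Of the exon bases of Rarres2, 33.6% are shared with the opposite-strand gene Lrrc61, whose kidney log2 fold changes were 0.04 (SE 0.15) and 0.29 (SE 0.16), neither called. Reads were counted without strand, and reads that lay wholly on shared bases went to neither gene.

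Because chemerin is abundant in fat, 5 fat markers (Adipoq, Plin1, Cfd, Retn and Lep) were summed beside it. Their sum in the kidney at 1340 mg/kg/d was 18.03, 18.8, 13.8 and 55.3 CPM in water and 3.51, 4.63, 59.0 and 4.43 CPM in NMN libraries. Cfd was the most abundant of the 5, and none was at 0 in every library of a kidney group. The highest Rarres2 library of each 1340 mg/kg/d group was also the one with the highest fat sum, and without the third NMN library the Rarres2 log2 fold change was 0.84 and still called. With the high dose, the fat sum was 175, 185 and 209 CPM in water and 161, 184 and 293 CPM in NMN libraries. There the NMN library with the highest Rarres2 had the lowest fat sum of its group. The part of fat RNA in the Rarres2 values was not tested. In whole tissue, more cells of a type and more RNA per cell cannot be told apart. Of the receptors of chemerin, Cmklr1 and Ccrl2 were tested in the kidney and neither was called on either schedule. Neither had an unadjusted p under 0.05, and DESeq2 called neither. Cmklr1, the signalling receptor, had log2 fold changes of -0.06 (SE 0.27) and 0.25 (SE 0.19).

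Rarres2 takes its symbol from its response to retinoids, and 9 other genes of retinoid handling and response were set beside it. None was called in the kidney among 7 tested at 1340 mg/kg/d and 8 tested at 2680 mg/kg/d. Their median log2 fold changes were -0.05 and 0.29, 0 and 1 had an unadjusted p under 0.05, and DESeq2 called none.

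Tfpi2 was lower under NMN on both schedules in the kidney. Its water libraries at 1340 mg/kg/d held 20.8, 13.8, 15.1 and 14.1 CPM and its NMN libraries 9.16, 6.07, 8.13 and 7.43 CPM. The groups did not overlap, and the log2 fold change was -1.07 (SE 0.19), so that the level fell to 0.477 of water. The call held in 3 of the 8 fits that left out 1 library each, those without water replicate 2 and without NMN replicates 1 and 3. In the high-dose mice, the water libraries held 11.1, 10.9 and 12.0 CPM and the NMN libraries 7.59, 6.89 and 6.29 CPM, with a log2 fold change of -0.72 (SE 0.14). The call there held in 5 of 9 alternative settings and was lost with a replicate block. It held in 1 of the 6 fits without 1 library. All NMN libraries of both schedules were below all water libraries of both. Among 11 other genes of tissue factor and plasmin control, none was called in the kidney on either schedule, and 11 of 11 had positive log2 fold changes at 2680 mg/kg/d with a median of 0.11. At an unadjusted p under 0.05 there were 2 and 3, and DESeq2 called none. Tfpi, the paralog of Tfpi2, had -0.53 (SE 0.21) and 0.03 (SE 0.18).

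Folh1 was called at the high dose and not at the low dose. With the low dose, the water libraries held 104, 150, 141 and 119 CPM and the NMN libraries 119, 159, 99.0 and 121 CPM. The groups overlapped, with a log2 fold change of -0.06 (SE 0.13). Under the high dose, the water libraries held 162, 156 and 134 CPM and the NMN libraries 74.3, 64.3 and 78.3 CPM. The level fell to 0.480 of water, a log2 fold change of -1.06 (SE 0.09), and the call held in all 6 fits without 1 library. The difference of these fold changes between schedules was -1.01 on the log2 scale (SE 0.18) and was not called across all genes. The folate and NAAG list held 13 other genes tested in the kidney, of which none was called on either schedule, with median log2 fold changes of -0.05 and 0.01. At an unadjusted p under 0.05 there were 2 and 3, and DESeq2 called 0 and 2, Aldh1l1 and Ftcd. Ftcd, which enters histidine carbons into the folate pool, had 0.12 (SE 0.15) and -0.57 (SE 0.13), and Aldh1l1, which oxidises formyl-folate, had 0.24 (SE 0.09) and 0.36 (SE 0.09).

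Sugct had the smallest fold change of the 7 called members at the high dose, and the smallest SE. Its water libraries held 129, 140 and 140 CPM and its NMN libraries 96.5, 105 and 94.7 CPM, a log2 fold change of -0.47 (SE 0.08). In the low-dose mice, the water libraries held 162, 151, 146 and 168 CPM and the NMN libraries 143, 126, 138 and 144 CPM. Those groups did not overlap either, and the log2 fold change of -0.20 (SE 0.10) was not called. None of 13 other genes of lysine and glutarate breakdown was called in the kidney on either schedule, and 7 of the 13 had positive log2 fold changes on each. At an unadjusted p under 0.05 there were 0 and 4, and DESeq2 called Aadat at the high dose. Aadat, the aminoadipate aminotransferase of the same pathway, had log2 fold changes of -0.17 (SE 0.11) and -0.55 (SE 0.16).

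Syne4 held 39.1, 47.4, 46.7 and 49.6 CPM in the kidney water libraries at 1340 mg/kg/d and 35.7, 34.1, 43.3 and 38.4 CPM in the NMN libraries. The groups overlapped, with a log2 fold change of -0.29 (SE 0.10) that was not called. With the high dose, the water libraries held 44.8, 51.4 and 42.5 CPM and the NMN libraries 33.4, 30.1 and 33.3 CPM, without overlap and with a log2 fold change of -0.52 (SE 0.09). Of 12 other genes of the LINC complex, the lamina and kinesin-1, none was called in the kidney on either schedule by edgeR or DESeq2, with 3 and 2 at an unadjusted p under 0.05. Sun2, one of the inner membrane proteins that nesprins bind, had log2 fold changes of 0.25 (SE 0.11) and 0.28 (SE 0.08), and Syne1 had 0.28 (SE 0.12) and 0.14 (SE 0.13).

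Fam151a was lower under NMN on both schedules in the kidney. Its water libraries at 1340 mg/kg/d held 48.0, 45.6, 53.1 and 40.8 CPM and its NMN libraries 26.7, 26.9, 30.1 and 24.3 CPM. The groups did not overlap, and the log2 fold change was -0.81 (SE 0.11), called in all 8 fits without 1 library. In the high-dose mice, the water libraries held 30.2, 39.1 and 39.8 CPM and the NMN libraries 21.2, 19.0 and 15.1 CPM, with a log2 fold change of -0.99 (SE 0.14). Of its exon bases, 65.7% (1263 of 1923) are shared with the opposite-strand gene Acot11, so a read had to touch 1 of the other 660 bases to be counted for it. Acot11, an acyl-CoA thioesterase, had kidney log2 fold changes of -0.02 (SE 0.23) and -0.11 (SE 0.22), neither called. Its paralog Fam151b had -0.31 (SE 0.26) and -0.35 (SE 0.15).

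Fam25c showed the largest change of the members in the kidney at 2680 mg/kg/d and rested on few reads. The kidney water libraries held 2.74, 2.14 and 1.87 CPM, or 52, 35 and 32 reads. The NMN libraries held 8.11, 9.08 and 14.7 CPM, or 186, 212 and 497 reads. The groups did not overlap, and the log2 fold change was 2.24 (SE 0.26), a ratio of 4.72. Under the low dose, the water libraries held 4.78, 2.39, 3.78 and 2.94 CPM and the NMN libraries 3.58, 2.66, 7.62 and 5.28 CPM, which overlapped, with a log2 fold change of 0.43 (SE 0.32). The difference between schedules was 1.80 on the log2 scale (SE 0.46) and was not called.

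Pbld2 was called at the high dose and not at the low dose. The kidney water libraries of the high-dose schedule held 23.0, 25.4 and 21.4 CPM and the NMN libraries 16.1, 12.7 and 13.1 CPM, a log2 fold change of -0.74 (SE 0.11) without overlap. With the low dose, they held 25.1, 21.2, 28.1 and 25.9 CPM in water and 21.8, 25.4, 28.6 and 22.3 CPM in NMN libraries, with a log2 fold change of -0.05 (SE 0.13). The difference between schedules was -0.69 (SE 0.17) and was not called. Its paralog Pbld1, with which it may share reads, had kidney log2 fold changes of -0.13 (SE 0.10) and 0.07 (SE 0.10). None of the 7 paralogs of members tested in the kidney was called by edgeR or DESeq2, with 2 and 1 at an unadjusted p under 0.05. None of the 8 members was called for a difference between schedules in the kidney, where 1 of 15989 genes was (0.00625%), 738 had an unadjusted p under 0.05 in edgeR's test, and DESeq2 called 11 genes with Folh1 among them. The kidney calls at 2680 mg/kg/d depended on single libraries for all 7 called members except Folh1, which was called in all 6 fits without 1 library. It was the 1 member left without water replicate 2 or 3, while 3 were called without water replicate 1, 5 without NMN replicate 2, 2 without NMN replicate 3 and 8, with Rarres2 added, without NMN replicate 1. Of all genes, these fits called 20, 3, 17, 62, 16 and 191 in the same order, against 61 with every library.

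**Figure D2:**
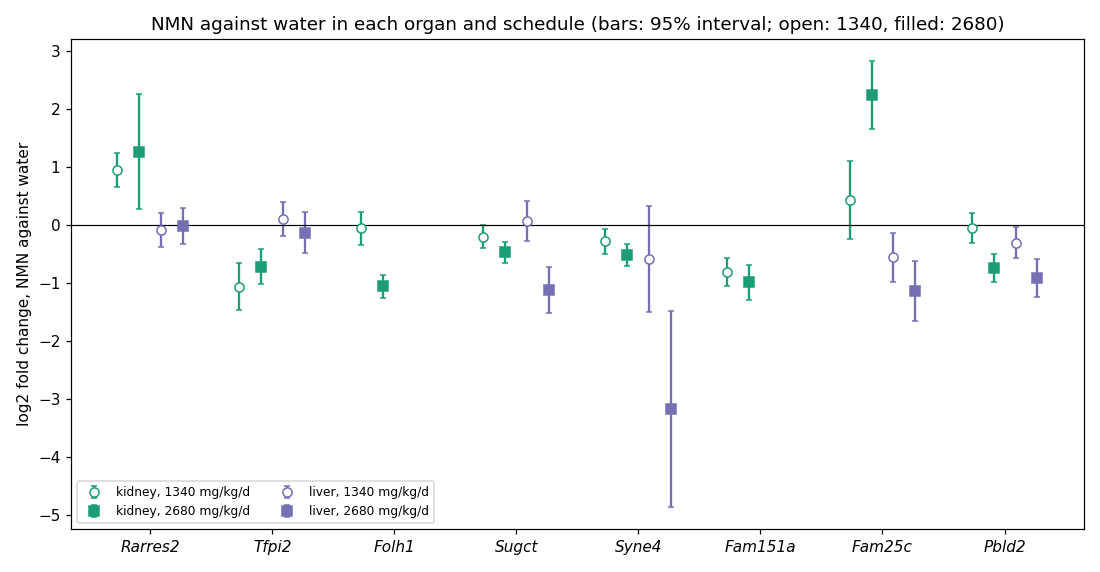
Log2 fold change of NMN against water for each gene, with kidney in green and liver in purple. Open circles stand for 1340 mg/kg/d and filled squares for 2680 mg/kg/d, and bars are 95% intervals. Fam151a and Folh1 have no liver points because too few reads were counted there. Fam25c at 2680 mg/kg/d is at 2.24 in kidney and at -1.14 in liver.

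Summed levels of nephron markers were also compared between NMN and water kidneys, without a test of the sums. The summed level of 20 proximal tubule markers was 54010, 46944, 47225 and 53724 CPM in the water libraries at 1340 mg/kg/d and 42704, 37433, 42745 and 43652 CPM in the NMN libraries. Under the high dose, it was 45290, 44578 and 45865 CPM in water and 34876, 40777 and 35148 CPM in NMN libraries. On both schedules the NMN libraries were below the water libraries. The most abundant marker was Kap, an androgen-regulated protein of the proximal tubule, at a mean of 22368 CPM in water and 16720 in NMN libraries at 1340 mg/kg/d and of 21104 and 15713 CPM at 2680 mg/kg/d. Of the 20 markers, 16 had negative log2 fold changes at 1340 mg/kg/d (median -0.25) and 14 at 2680 mg/kg/d (median -0.16), and 1 was called, Miox, at 2680 mg/kg/d with a log2 fold change of -0.82 (SE 0.10). In either direction, 10 and 7 of the 20 had an unadjusted p under 0.05, and DESeq2 called 3 (Miox, Slc22a7, Slc5a2) and 4 (Kap, Lrp2, Miox, Slc5a2). Positive log2 fold changes were found for 4 and 6 markers. Slc13a3 went up at 1340 mg/kg/d, from 862 to 1162 CPM in water libraries and 1217 to 1406 CPM in NMN libraries. At 2680 mg/kg/d its libraries overlapped, with 775 to 848 CPM in water and 731 to 1097 CPM in NMN. Markers of the loop and distal nephron (14 genes) summed to 5223 ± 327 CPM (SD, n = 4) in water and 6275 ± 236 in NMN libraries at 1340 mg/kg/d, and to 4194 ± 286 and 4530 ± 338 CPM (SD, n = 3) at 2680 mg/kg/d, with Umod the most abundant and none called by edgeR (2 and 1 at an unadjusted p under 0.05, and Slc12a1 called by DESeq2 at the low dose). The loop and distal sums did not overlap at 1340 mg/kg/d. They overlapped at 2680 mg/kg/d, with 3869 to 4404 CPM in water and 4168 to 4838 CPM in NMN libraries. No marker of these lists was at 0 in a kidney group. The part of these shifts in the members' values was not tested.

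**Figure D3:**
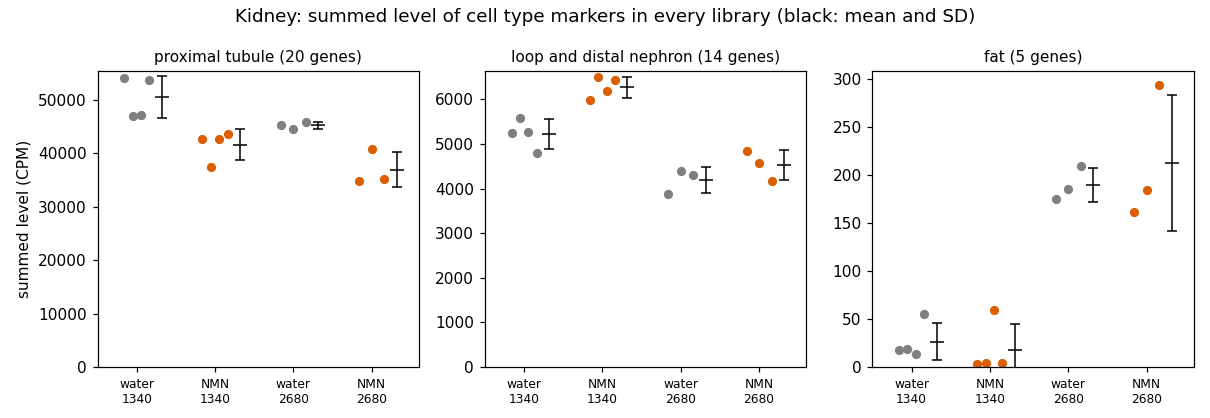
Summed level of proximal tubule, loop and distal nephron, and fat markers in each of the 14 kidney libraries, in CPM on linear axes that start at 0. Grey points are water, orange points NMN, and black bars mean and SD. The proximal tubule sum is lower in every NMN library than in the water libraries of its schedule, and the fat sum is between 161 and 293 CPM at 2680 mg/kg/d against 3.51 to 59.0 at 1340 mg/kg/d.

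Markers of other cell types held none called by edgeR in the kidney. The lists held 11 glomerulus and vessel genes, 9 immune genes, 10 hepatocyte genes, 5 fat genes and 5 genes of the adrenal cortex. Enough reads to be tested were held by 11, 6, 10, 3 and 1 of them at the low dose and by 11, 6, 8, 5 and 1 at the high dose. Of those tested, 4 genes had an unadjusted p under 0.05 at the low dose and 5 at the high dose, and DESeq2 called 0 and 3 (Ren1, Fga and Lep). Podxl, a podocyte and vessel protein, was the most abundant of the first list, with means of 191 CPM in water and 240 CPM in NMN libraries at 1340 mg/kg/d and of 143 and 181 CPM at 2680 mg/kg/d. Of the 11 genes of that list, 9 had positive log2 fold changes at 1340 mg/kg/d (median 0.22) and 10 at 2680 mg/kg/d (median 0.20). The part of this shift in the members' values was not tested. Library depth also differed. Kidney NMN libraries held 13174264 to 14006288 counted reads at the low dose against 15354270 to 15696435 in water, and 22922994 to 33872983 at the high dose against 16358886 to 18983689. With every library thinned to the smallest, the same 3 members were called at 1340 mg/kg/d and 6 at 2680 mg/kg/d, where Tfpi2 missed the threshold with a log2 fold change of -0.70. Of all genes, 20 and 54 were called after thinning, against 18 and 61 before. Mitochondrial genes took 20.3% to 20.6% of the counted reads in the 2680 mg/kg/d kidney groups and 9.48% to 9.71% in the 1340 mg/kg/d groups.

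In the liver, 6 of the 8 members had enough reads to be tested. In the low-dose mice, none was called, where 2 of 12449 genes were (0.0161%). Of all genes, 854 had an unadjusted p under 0.05 in edgeR's test, and with DESeq2 72 genes were called but none of the members. With the high dose, 4 of the 6 were called, all lower, where 7.08% of 12477 genes were called and 4.03% were called lower. The rule that chose the members named changes in the liver as well, so these counts too are descriptions. With plain library sizes 71.5% of the liver calls at 2680 mg/kg/d were higher instead of 43%, a shift of all genes by 0.15 on the log2 scale. The same 4 members were called lower, among 1145 genes called in either direction. Hepatocyte markers were lower beside them. The 10 markers summed to 173011, 167877 and 164613 CPM in the water libraries at 2680 mg/kg/d and to 136613, 144705 and 149754 CPM in the NMN libraries, which did not overlap. Alb, serum albumin, was the most abundant, at a mean of 114351 CPM in water and 99050 CPM in NMN libraries, and no marker was at 0. Of the 10, 9 had negative log2 fold changes (median -0.38), and 2 were called, both lower, the plasma carrier proteins Ttr at -0.97 (SE 0.13, adjusted p = 0.0023, edgeR) and Ahsg at -0.55 (SE 0.12, adjusted p = 0.022). At the low dose the sums were 112301 to 141280 CPM in water and 112416 to 139834 CPM in NMN libraries. The part of the hepatocyte markers' difference in the members' liver values was not tested.

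Sugct in the liver held 26.8, 33.2 and 28.9 CPM in the water libraries at 2680 mg/kg/d and 15.2, 12.8 and 17.4 CPM in the NMN libraries, a log2 fold change of -1.12 (SE 0.18). Pbld2 held 128, 118 and 121 CPM in water and 85.0, 66.0 and 65.8 CPM in NMN libraries, a log2 fold change of -0.91 (SE 0.15). These 2 remained called in all 6 fits without 1 library. Fam25c held 10.8, 10.8 and 9.67 CPM in water and 6.69, 4.65 and 4.40 CPM in NMN libraries. Its log2 fold change in the liver was -1.14 (SE 0.23), opposite in sign to that in the kidney. It lost its call without water replicate 1 or 2 or NMN replicate 3. The difference between the organs was not tested.

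Syne4 was nearly lost from the liver counts. Its water libraries at 2680 mg/kg/d held 23, 42 and 21 reads and its NMN libraries 1, 8 and 1. The ratio of NMN to water in pooled CPM was 0.120 (95% exact interval 0.0554 to 0.231, counting error only), and the fitted log2 fold change was -3.17 (SE 0.77). The call held in 1 of the 6 fits without 1 library, that without NMN replicate 2, where the log2 fold change was -4.75. For these 4 genes the NMN and water libraries did not overlap, as for 32.1% of all genes tested. Rarres2 and Tfpi2, both at high levels in the liver, differed by -0.02 (SE 0.14) and -0.13 (SE 0.16) on the log2 scale and their libraries overlapped.

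Under the low dose, the liver libraries of 1 member did not overlap (3.94% of all genes tested). It was Pbld2, with 149, 149, 185 and 162 CPM in water and 139, 133, 124 and 129 CPM in NMN libraries and a log2 fold change of -0.30 (SE 0.12). Fam25c had -0.56 (SE 0.19), Syne4 -0.59 (SE 0.42), Tfpi2 0.10 (SE 0.13), Sugct 0.07 (SE 0.16) and Rarres2 -0.09 (SE 0.14). No member was called for a difference between schedules in the liver, where 10 of 13412 genes were (0.0746%), 1154 had an unadjusted p under 0.05 in edgeR's test, and DESeq2 called 100 with Sugct among them. Sugct had the largest such difference relative to its error, -1.17 (SE 0.24).

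**Figure D4:**
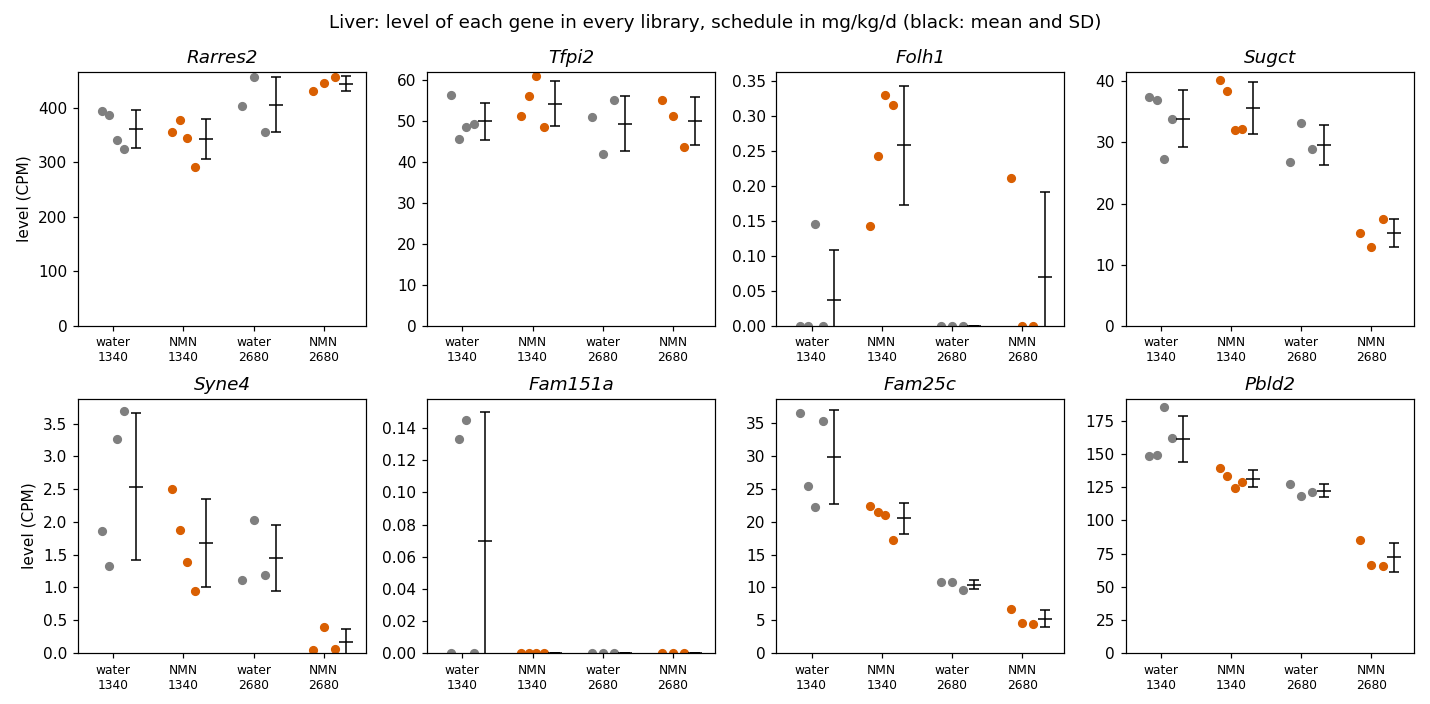
Level of each gene in the 14 liver libraries, in CPM on linear axes that start at 0, with grey water and orange NMN points and black bars for mean and SD. Folh1 and Fam151a reach at most 0.330 CPM. Sugct, Syne4, Fam25c and Pbld2 are lower in all 3 NMN libraries than in the water libraries at 2680 mg/kg/d, and Rarres2 and Tfpi2 overlap.

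Fam151a and Folh1 were close to absent from the liver. Fam151a had 4 reads in the 4 water libraries at 1340 mg/kg/d and none in the other liver libraries. Folh1 had 0, 0, 2 and 0 reads in the water libraries and 2, 4, 5 and 4 in the NMN libraries at 1340 mg/kg/d, a pooled ratio of 7.33 (95% exact interval 1.70 to 66.0, counting error only). In the high-dose mice, it had 4 reads, all in NMN replicate 1. Genes of other nephron segments were present in the same libraries at trace levels. Umod, made by the thick ascending limb, had 33 to 48 reads in the liver water libraries and 44 to 59 in the liver NMN libraries at 1340 mg/kg/d. Its means there were 2.93 and 3.54 CPM. At 2680 mg/kg/d it had 54 reads in NMN replicate 1 and 0 to 10 in the other 5 liver libraries. In that replicate Umod stood at 0.179% of the kidney water level and Folh1 at 0.14%. The 14 loop and distal markers summed to 7.32 CPM there against 0.04995 and 0.385 CPM in the other NMN libraries. The part of such reads in the liver values of Folh1 was not tested.

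The organs of water mice were compared next, which the rule did not use, although these water libraries are also one arm of the contrasts that chose the members. In the liver libraries the 10 hepatocyte markers summed to 125050 CPM at 1340 mg/kg/d and 168500 CPM at 2680 mg/kg/d, against 1902 and 2324 CPM in the kidney, where Cyp2e1 gave most of the sum. All 8 members differed between kidney and liver on both schedules. Of all genes tested, 66.9% and 70.5% differed as well, so 8 of 8 is read against that background. With the low dose, 4 members were higher in the kidney (36.1% of all genes) and 4 lower (30.9%). The same 4 and 4 were found at 2680 mg/kg/d (39.5% and 31.0% of all genes). The scaling matters here. With plain library sizes the kidney to liver log2 fold change of all genes was higher by a median of 0.95 at 1340 mg/kg/d and 0.93 at 2680 mg/kg/d, and 85.8% and 84.9% of the calls were higher in kidney instead of 53.9% and 56%. All 8 members kept their direction and their call. Kidney and liver libraries were fitted as unpaired, since the labels do not tie them to animals. Yet same-numbered libraries were the closest in 4 of 4 pairs at 1340 mg/kg/d (r from 0.06 to 0.22) and 3 of 3 at 2680 mg/kg/d (0.0635 to 0.158). The p-values of the main fit leave out any such pairing. With a replicate block all 8 members were called as well.

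Folh1 and Fam151a were the most kidney-restricted of the members. In pooled water libraries Folh1 had 7979 reads in the kidney and 2 in the liver at 1340 mg/kg/d, a ratio of 1892 on the TMM scale (95% exact interval 523.5 to 15620, counting error only) and of 3650 in plain CPM (1010 to 30140). Under the high dose, it had 7910 reads in the kidney and none in the liver, at least 1554-fold higher on the TMM scale and 2957-fold in plain CPM, against a floor of 3 reads over the liver group. Fam151a had 2914 reads against 4, a ratio of 345 on the TMM scale (95% exact interval 135 to 1269) and of 666.5 in plain CPM (260 to 2448). With the high dose it had 1894 reads against none, at least 372-fold higher on the TMM scale and 708-fold in plain CPM, against the same floor. On the TMM scale Syne4 was higher in the kidney by 3.22 (SE 0.25, adjusted p = 9.9e-08, edgeR) on the log2 scale at 1340 mg/kg/d and by 4.05 (SE 0.22, adjusted p = 3.0e-08) at 2680 mg/kg/d. Sugct was higher by 1.26 (SE 0.14, adjusted p = 2.6e-06, edgeR) and 1.28 (SE 0.12, adjusted p = 3.2e-06).

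Rarres2 was the most liver-biased member, at 361 ± 34.4 CPM (SD, n = 4) in liver and 20.4 ± 3.84 in kidney at 1340 mg/kg/d. The log2 fold change of kidney against liver was -5.10 (SE 0.17, adjusted p = 1.1e-11, edgeR), and -5.02 (SE 0.17) at 2680 mg/kg/d. Fam25c stood at -4.05 (SE 0.26, adjusted p = 1.2e-08, edgeR) and -3.13 (SE 0.21) on the 2 schedules. Pbld2 stood at -3.63 (SE 0.14, adjusted p = 4.3e-11, edgeR) and -3.33 (SE 0.12). Tfpi2 stood at -2.59 (SE 0.17, adjusted p = 1.4e-08, edgeR) and -3.05 (SE 0.14). These 4 genes were thus lower in kidney than in liver, and in the kidney 2 of them were higher under NMN (Rarres2, Fam25c) and 2 lower (Tfpi2, Pbld2).

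**Figure D5:**
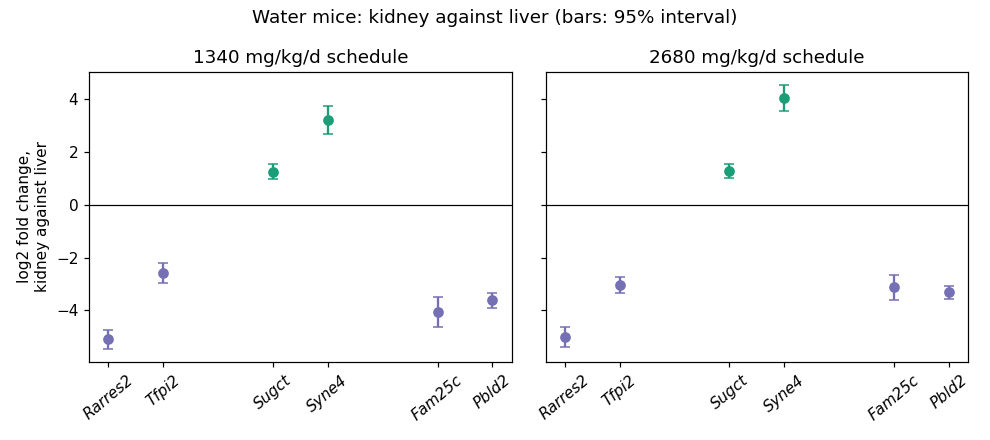
Log2 fold change of kidney against liver in water mice on each schedule, with 95% intervals, for the 6 members other than Folh1 and Fam151a, which had at most 4 reads in a liver water group. Green points are genes higher in kidney and purple points genes higher in liver. Rarres2 is lowest on both schedules at -5.10 and -5.02, and Syne4 highest at 3.22 and 4.05.

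Levels can be compared between genes per kilobase of exon. In the kidney of 1340 mg/kg/d water mice the order was Sugct at 45.7 CPM per kb, Folh1 at 39.99, Fam151a at 24.4, Syne4 at 15.5, Pbld2 at 10.1, Tfpi2 at 9.13, Fam25c at 8.50 and Rarres2 at 7.67. Sugct and Folh1 differed by less than the SD of Folh1 (6.54, n = 4), and the last 4 differed from their neighbours by less than the larger SD of each pair (SD 1.16 to 2.56, n = 4). Where exons are shared, fewer reads could be counted, so these levels are lower limits. Per kilobase of exon that no other gene shares, an upper limit since reads that cross into shared bases still count, Fam151a stood at 71.0 CPM per kb and Rarres2 at 11.6, so the place of Fam151a among the first 3 and of Rarres2 among the last 4 is not set. In the liver of the same mice Rarres2 led with 136 CPM per kb (205 per kb of unshared exon), before Fam25c at 73.3, Pbld2 at 65.1, Tfpi2 at 28.6, Sugct at 9.88 and Syne4 at 0.860, and Fam25c and Pbld2 differed by less than the SD of Fam25c (17.5). Fam25c has only 408 exon bases, the fewest of the 8, and its level per kb rests on 216 reads in the 4 kidney libraries and 1699 in the 4 liver libraries.

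Water mice of the 2 schedules were compared to see how far the members vary without NMN. These water libraries are also one arm of the contrasts that chose the members, so the values here describe the chosen genes. In the kidney 1 of 8 members was called, against 18.3% of 15267 genes. It was Folh1, at 128 ± 20.98 CPM (SD, n = 4) on the 1340 mg/kg/d schedule and 151 ± 14.4 CPM (SD, n = 3) on the 2680 mg/kg/d schedule, a log2 fold change of 0.40 (SE 0.10, adjusted p = 0.0138, edgeR). It lost its call without water replicate 1 or 2 of the 2680 mg/kg/d schedule, where the log2 fold change was 0.35 and 0.39. It was also lost with plain library sizes, where it was 0.23, all genes moved by -0.17 on that scale, 12.7% instead of 41.4% of the calls were higher, and Fam151a (-0.37) and Tfpi2 (-0.49) were called instead. In the liver 1 of 6 members was called, against 4.44% of 12541 genes. It was Fam25c, which held 36.5, 25.4, 22.3 and 35.4 CPM at 1340 mg/kg/d and 10.8, 10.8 and 9.67 CPM at 2680 mg/kg/d. The groups did not overlap, with a log2 fold change of -1.38 (SE 0.22, adjusted p = 0.0042, edgeR) that was called in all 7 fits without 1 library. With plain library sizes 13.6% instead of 32.7% of the liver calls were higher, and Fam25c was called still. Blocking on replicate number raised the calls from 557 to 1038 genes and left Fam25c called. Other values differed between the same water groups. In the kidney the fat marker sum was 13.8 to 55.3 CPM at 1340 and 175 to 209 CPM at 2680 mg/kg/d, the proximal tubule sum 46944 to 54010 and 44578 to 45865 CPM, the loop and distal sum 4790 to 5584 and 3869 to 4404 CPM, and the mitochondrial share of reads 9.10% to 10.6% and 19.8% to 21.6%, none overlapping. In the liver the hepatocyte marker sum was 112301 to 141280 and 164613 to 173011 CPM and the mitochondrial share 3.89% to 5.34% and 5.74% to 7.37%, again without overlap. With mitochondrial genes left out, the log2 fold change was 0.41 for Folh1 in the kidney and -1.38 for Fam25c in the liver, both called. The part of the markers in these values was not tested. The schedules differ in the number of gavages and possibly in sequencing run, which cannot be told apart.

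Across the 14 kidney libraries, with log2 levels centred on each schedule's mean, pairs of members correlated to different degrees. Pearson's r was 0.33 between Folh1 and Tfpi2, 0.88 between Fam151a and Tfpi2 and -0.88 between Fam25c and Folh1, and Rarres2 ran against Fam151a with r = -0.78. These correlations describe 14 libraries that share treatment and depth differences, including the contrast by which the members were chosen. Among 13869 genes the most alike to each member by the same measure were Cpne4 (r = 0.945) for Fam151a, 4931406C07Rik (0.965) for Tfpi2, Tmco4 (0.928) for Fam25c, Msn (0.917) for Folh1, Hao2 (0.862) for Pbld2, Cltrn (0.927) for Sugct, Rab34 (0.906) for Syne4 and Ptp4a2 (0.938) for Rarres2. The next in order were Chd3, Hsd3b2, Ndufb8, Aqp4, Serbp1, Agxt2, Glb1l and Uroc1. Hao2, a peroxisomal hydroxyacid oxidase of the kidney, had a log2 fold change of -1.31 at 2680 mg/kg/d and -0.14 at 1340 mg/kg/d, beside -0.74 and -0.05 for Pbld2. Aqp4, a water channel, had -0.91 and -0.08, beside -1.06 and -0.06 for Folh1.

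Of the pathway lists, which are not members, 6 genes were called in the liver at the high dose. Sun2, a LINC complex protein of the inner nuclear membrane, was higher by 0.97 on the log2 scale (SE 0.20, adjusted p = 0.019, edgeR). Of genes outside the naming rule, named here after their values were seen, Serpine2 had a log2 fold change of -1.26 (SE 0.33, adjusted p = 0.044, edgeR), Rarres1 of -1.24 (SE 0.19, adjusted p = 0.0060) and the folate genes Slc46a1 and Shmt1 of -0.77 (SE 0.17, adjusted p = 0.024) and -0.82 (SE 0.14, adjusted p = 0.0085). Acot11, which overlaps Fam151a, had a log2 fold change of -3.58 (SE 0.68, adjusted p = 0.015, edgeR). None of the 13 lysine and glutarate genes was called there by edgeR (2 at an unadjusted p under 0.05, and 1 called by DESeq2), nor any of the 7 paralogs (1 at an unadjusted p under 0.05, none by DESeq2), nor the 2 chemerin receptors tested (0 by either).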

How the data were processed

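Raw read counts per gene for 28 libraries, as deposited, were made by the authors with STAR and HTSeq (a recognised genome build is not given in the sources used here), in strict intersection mode and without strand. Reads that lay wholly on bases shared by overlapping genes were therefore set aside, and the 2.20% to 5.75% ambiguous and 3.80% to 14.4% no-feature reads were left out of library sizes. Ensembl identifiers were matched to GENCODE M21 (37 of 54446 had no match). Libraries held 12688324 to 33872983 counted reads, and the sequencer used for each is not given. The authors' own DESeq2 normalisation was not used.

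The members, gene lists and tests were chosen with earlier results of these data known. Counts were tested with edgeR 4.0.16 in R 4.3.3 (TMM scaling, filterByExpr, robust quasi-likelihood, Benjamini-Hochberg over all tested genes, threshold 0.05), tested on simulated data beforehand. CPM use plain library sizes. Named genes were the 8 members, at most 3 others per list with the smallest kidney p, paralogs, overlapping genes, and the 2 genes most alike to each member (log2 CPM with a prior count of 2, mean CPM of at least 1). Genes of the lists that only DESeq2 called were named after their values were seen. Counts over lists include some genes whose own values are not reported here. Intervals are exact 95% intervals of pooled counts, ratios to 0 reads use a floor of 3 reads, and both cover counting error only. Alternatives were DESeq2 1.42.0, its size factors, filters (none, or 10 counts in every library), thinning, leaving out mitochondrial genes, a replicate block, all 14 libraries of an organ, each library left out and, chosen after seeing the data, plain library sizes. Replicate numbers were checked for pairing, and were taken to pair the libraries where every same-numbered pair had r over 0.1, which only the liver water comparison of schedules met (r = 0.154 to 0.326, 3 pairs). The labels give no reason for this.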

Additional observations from a re-analysis of the deposited data

Results flagged for a closer look

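Folh1 stood at 0.145 CPM (2 reads) in replicate 3 of the liver water group at 1340 mg/kg/d and at 0 in the other 3 libraries, so that the gap was the whole range. It was 1 of 31 pairs of gene and group looked at. With 0 reads in the rest of the group, any read sets this flag, so nothing is read from it. Fam25c moved in opposite directions in the organs at 2680 mg/kg/d, with a log2 fold change of 2.24 in the kidney, where every NMN library was above every water library, and of -1.14 in the liver, where every NMN library was below. The difference was not tested.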

How the results depend on the processing

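Of 1200 values of single members under the alternatives, 1180 kept their size or, in the water comparisons, direction and call, 8 reversed, 3 lost and 5 gained a call, and 4 moved. NMN contrasts were judged by value here (within 1 SD), with a reversal counted only for a called value, and their calls are counted below. Of 754 NMN values 12 changed sign, all in 7 contrasts of members that were not called, such as Rarres2 for the kidney schedule difference (0.32 to -0.11) and in the liver at 2680 mg/kg/d (-0.0196 to 0.132). In the water comparisons of schedules any change of sign was counted, and all values there that reversed were not called. The cause was not tested. In these comparisons Sugct in the kidney was 0.00120 with a replicate block, and with plain library sizes Pbld2 in the kidney was -0.110 and Tfpi2 in the liver -0.0179. Without 1 library each, Sugct ranged from -0.0755 to 0.00807 and Pbld2 from -0.0390 to 0.104 in the kidney, and Sugct from -0.167 to 0.0113 in the liver. Counts of all genes called depended most on the setting. With DESeq2 they were 157 and 236 in kidney at 1340 and 2680 mg/kg/d (18 and 61 in edgeR), 72 and 1450 in liver (2 and 883), 11 and 100 for the differences between schedules in kidney and liver (1 and 10), and 1002 for liver water (557). Without a filter on low counts they were 269, 514, 44, 1785, 106, 71 and 1236 in the same order. A replicate block pairs libraries by number, which the labels do not tie to animals. Beyond liver water, each library was closest to its own number in 4 further comparisons, with every pair positive (r from 0.0378 to 0.22). These were the liver NMN contrast at 2680 mg/kg/d, both kidney against liver comparisons of water mice and the kidney water comparison of schedules. With the block the counts were 75, 92 and 16 for both kidney contrasts and the liver at 1340 mg/kg/d, 2 for the kidney schedule difference and 1038 for liver water. With all 14 libraries of an organ in 1 fit they were 35 in kidney at 2680 and 6 in liver at 1340 mg/kg/d. With 10 counts in every library they were 0 for the kidney schedule difference and 305 for liver water, and with plain library sizes 0 for the kidney schedule difference. Members called for a schedule difference were 1 with DESeq2 (Folh1) and 2 without a filter (Fam25c, Folh1) in the kidney, and 1 with each (Sugct) in the liver. Members called in kidney water were 2 without a filter, 2 with the block (Folh1 and Rarres2, with Rarres2 at 0.50) and 2 with plain library sizes (Fam151a and Tfpi2). The main fit called 18.3% of all genes there, and nothing is read from these member counts. In the kidney at 2680 mg/kg/d the block kept 7 members but called Rarres2 (1.20) in place of Tfpi2, and all 14 libraries in 1 fit gave 5 members (without Tfpi2 and Sugct). At 1340 mg/kg/d that fit gave 2, without Rarres2, among 17 genes called. Without 1 library each, genes called ranged from 5 to 67 and 3 to 191 in kidney, 0 to 18 and 211 to 1308 in liver, 0 to 1 and 7 to 25 for the schedule differences, and 1632 to 2880 and 310 to 657 for kidney and liver water. Members ranged from 1 to 8 in kidney and 2 to 4 in liver at 2680 mg/kg/d, 0 to 1 for each schedule difference and 0 to 2 in kidney water. The depth limits Folh1 and Fam151a in liver, where the reads are too few to test.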
